A study of Caenorhabditis elegans with 2 samples.

Results

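The genes described here are 8 genes of the nematode Caenorhabditis elegans that make or hold together its epidermis: 5 fate regulators (elt-1, lin-26, elt-3, elt-6 and egl-18) and 3 genes of epithelial junctions (dlg-1, ajm-1 and let-413). They were listed by name for these roles, and they are 8 of 19973 protein-coding genes in the Ensembl annotation of the WBcel235 genome. The data are peak lists from chromatin immunoprecipitation followed by sequencing, in which DNA bound by a protein is pulled down with an antibody and sequenced, and a peak is a stretch of genome where such DNA piled up. The protein was TBX-37, a T-box transcription factor. There was 1 group of 2 biological replicates, both of strain RW12282, which carries st12282[tbx-37::TY1::EGFP::3xFLAG] III, a tag inserted into tbx-37 by CRISPR, and the antibody was raised against green fluorescent protein. Both were whole early embryos collected by bleaching, labelled 0 hours. With 1 strain, 1 stage and no second group, no contrast between conditions could be made, and in whole embryos the cells that gave a peak cannot be told apart. Sequencing depth is unknown, because the lists hold no read counts, and the control experiment named in the labels was not used here.

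In the worm embryo, epidermal fate is set by a chain of transcription factors. ELT-1, a GATA factor, starts the programme, LIN-26, a zinc-finger protein, keeps epidermal and other epithelial cells in their fate, and the GATA factors ELT-3, EGL-18 and ELT-6 act later, ELT-3 in the main epidermis and EGL-18 with ELT-6 in the stem-like seam cells. Epidermal cells are then joined near their apical side by a belt that holds the scaffold protein DLG-1 and its coiled-coil partner AJM-1, and LET-413, the worm relative of Scribble, gathers that belt into place. TBX-37 is known from the descendants of the ABa blastomere, where it acts with TBX-38 in making the anterior pharynx.

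A gene was counted as having a peak where the summit, the highest point of the peak, lay in the gene body or within 5000 bp of it. In the conservative list, which the authors made by comparing both replicates and which holds 1107 peaks, 4 of the 8 genes had a peak: egl-18 and elt-6, which shared 1, dlg-1 with 2 and ajm-1 with 3. No summit lay within 5000 bp of elt-1, lin-26, elt-3 or let-413. By the same rule 14.5% of all protein-coding genes had a peak. Long genes had one more often, at 20.2% in the longest 20% of genes and at 15.3% in the next 20%. The longest 20% hold all of the 8 except lin-26 and elt-6, and the next 20% hold those 2. The longest 20% run from 4321 to 102756 bp with a median of 6772 bp. Both ajm-1 (30674 bp) and egl-18 (15519 bp) are far above that median, so the 20.2% does not match their length. By role, 2 of 5 fate regulators had a peak, through a single shared one, and 2 of 3 junction genes did, through 5. Of the 6 peaks, 3 lay at transfer RNA (tRNA) genes and 3 did not. Among all conservative peaks, 27.1% had a summit within 100 bp of a tRNA or other small RNA gene.

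The 6 peaks carry the finding, so the sequence 100 bp to each side of every summit is printed here, 5′ to 3′ on the plus strand of WBcel235 (ce11), from the RefSeq copy of that genome. Capitals mark a tRNA gene in the peaks that hold one, and a motif match counted further on in the others. The seventh sequence is the elt-6 candidate closest to that gene's start, which missed the threshold.
egl-18 and elt-6 peak, chrIV:1915651-1915851: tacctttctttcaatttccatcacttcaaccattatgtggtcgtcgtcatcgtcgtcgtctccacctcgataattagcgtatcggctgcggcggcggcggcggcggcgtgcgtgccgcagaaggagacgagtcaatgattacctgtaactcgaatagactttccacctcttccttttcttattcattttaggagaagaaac
dlg-1 intron peak, chrX:5480290-5480490: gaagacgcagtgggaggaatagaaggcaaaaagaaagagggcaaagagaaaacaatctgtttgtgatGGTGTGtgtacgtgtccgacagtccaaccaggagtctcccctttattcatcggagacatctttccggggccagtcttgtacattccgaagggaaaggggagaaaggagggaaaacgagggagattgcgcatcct
dlg-1 downstream peak, chrX:5485407-5485607: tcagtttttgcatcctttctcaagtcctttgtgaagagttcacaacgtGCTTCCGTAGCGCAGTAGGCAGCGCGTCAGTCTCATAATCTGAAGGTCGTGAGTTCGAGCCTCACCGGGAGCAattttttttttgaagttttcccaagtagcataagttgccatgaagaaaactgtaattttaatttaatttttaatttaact
ajm-1 upstream peak, chrX:9078240-9078440: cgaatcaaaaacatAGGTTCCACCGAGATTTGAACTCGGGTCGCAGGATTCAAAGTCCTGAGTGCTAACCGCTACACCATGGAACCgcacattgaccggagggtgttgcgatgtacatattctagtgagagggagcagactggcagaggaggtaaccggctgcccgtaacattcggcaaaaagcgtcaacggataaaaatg
ajm-1 intron peak, chrX:9091513-9091713: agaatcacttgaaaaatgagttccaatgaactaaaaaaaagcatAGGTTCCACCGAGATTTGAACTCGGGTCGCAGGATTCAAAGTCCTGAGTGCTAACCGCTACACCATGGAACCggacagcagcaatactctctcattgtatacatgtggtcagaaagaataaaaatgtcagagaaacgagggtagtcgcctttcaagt
ajm-1 downstream peak, chrX:9113941-9114141: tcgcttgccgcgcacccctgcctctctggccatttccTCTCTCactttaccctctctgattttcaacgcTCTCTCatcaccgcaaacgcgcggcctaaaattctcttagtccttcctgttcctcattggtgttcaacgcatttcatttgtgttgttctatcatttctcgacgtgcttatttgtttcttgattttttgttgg
elt-6 candidate, chrIV:1917567-1917767: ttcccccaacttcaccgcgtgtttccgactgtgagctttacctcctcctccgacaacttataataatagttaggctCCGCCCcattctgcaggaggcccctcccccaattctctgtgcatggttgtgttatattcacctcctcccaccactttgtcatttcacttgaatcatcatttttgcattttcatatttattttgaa

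Each peak has a signal value, the score that the authors' peak caller wrote, and an irreproducible discovery rate (IDR), an estimate of the chance that a candidate does not repeat between the 2 sets of peaks compared. The ranked lists hold every candidate that entered such a comparison (66355 for both replicates, 39578 for replicate 1 and 44219 for replicate 2), and the thresholded lists stop at an IDR close to 0.01. A 4th pair of lists, also of the whole series, is called the other series-wide list. Signal values have another scale in each replicate, so across lists ranks are compared, rank 1 being the highest signal value in a ranked list. All 6 peaks were 256 bp wide.

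**Figure D1:**
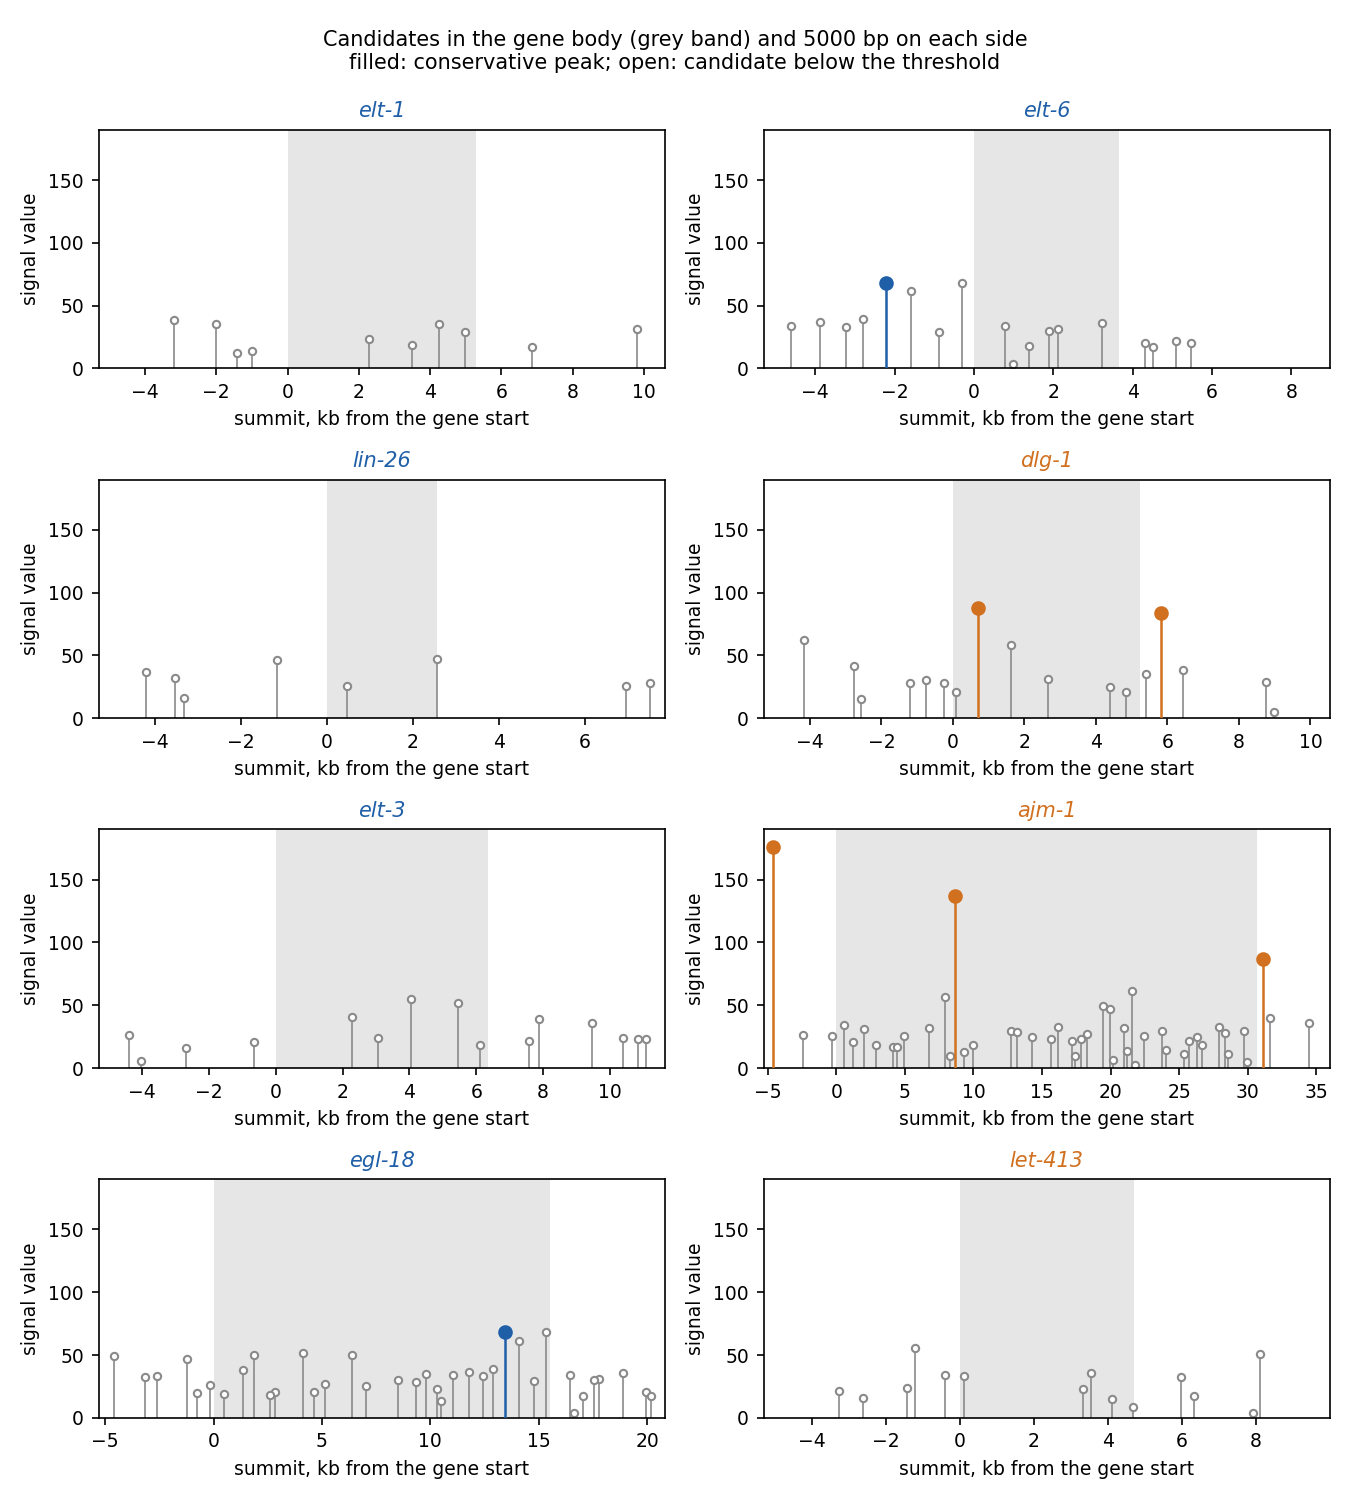
Candidates of the ranked list of both replicates in the window of each gene, with the summit's distance from the gene start in kb along transcription (horizontal) and the signal value (vertical). The grey band is the gene body, filled points are conservative peaks and open points are candidates below the threshold. The 3 filled points of ajm-1 stand at 176, 137 and 86.5, and elt-1, lin-26, elt-3 and let-413 have open points alone.

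The first of the fate regulators, elt-1, spans chrIV:9614995-9620280 on the plus strand and has 6 transcripts. Of the strongest candidates of the 8 genes in the list of both replicates, its own had the lowest rank. It lay 3173 bp upstream of the gene start, in sequence between genes, with a signal value of 38.5, rank 12421 and an IDR of 0.795. That is behind 69.9% of all protein-coding genes, counted by the rank of each gene's strongest candidate, and behind 86.3% of the longest 20% of genes. The 2 replicates did not place it alike. In replicate 1 the candidate there had rank 2343 and in replicate 2 it had rank 36976, and the strongest in replicate 2, 2006 bp upstream, had rank 9944. The nearest conservative peak lay 103446 bp away from elt-1, at a small nucleolar RNA gene.

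lin-26, at chrII:7682198-7684764 on the plus strand, lies beside lir-1, which covers its upstream region. Its strongest candidate had a signal value of 47.5, rank 5332 and an IDR of 0.202, and its summit fell in the 3′ untranslated region of lin-26, 127 bp upstream of the next gene, F18A1.1. Among all genes, 44.4% had a rank as good or better, so lin-26 stood near the middle. Candidates overlapping this one had rank 9234 in replicate 1 and rank 8493 in replicate 2, but each replicate had another strongest candidate. Replicate 1 had one in an intron of lir-1, 3530 bp upstream of lin-26, at rank 1528. Replicate 2 had one 1176 bp upstream of lin-26 at rank 2582. The nearest conservative peak lay 24006 bp past the gene.

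elt-3 spans chrX:13934874-13941216 on the plus strand, with 6 transcripts. Its strongest candidate was in an intron, 173 bp past the start of one of those transcripts and 4042 bp past the gene start, with a signal value of 55.1, rank 2894 and an IDR of 0.671. Of all genes, 29.0% ranked as well or better, and of the longest 20% of genes 41.3% did. Replicate 2 had it at rank 2406. Replicate 1 had no candidate overlapping it, and its own strongest, rank 2178, lay in a coding exon 1377 bp away. For elt-1, lin-26 and elt-3 alike, no candidate in the window had an IDR of 0.05 or less, a limit that 3.04% of all candidates met.

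egl-18 (chrIV:1902322-1917840) and elt-6 (chrIV:1917977-1921643) follow each other on the plus strand, 136 bp apart, so their windows overlap and they share candidates. Their peak, chrIV:1915623-1915878, lay in an intron of egl-18, 13429 bp past its gene start and 2226 bp upstream of elt-6. With a signal value of 68.1 it was rank 1435 among the candidates and rank 998 of the 1107 conservative peaks, and its IDR of 0.00896 was close to the threshold. Further candidates stood between it and elt-6. One 310 bp upstream of elt-6, in the 3′ untranslated region of egl-18, had a signal value of 68.0, rank 1442 and an IDR of 0.0246. Another, 1578 bp upstream, had 61.6, rank 1912 and an IDR of 0.0203. The stretch just before elt-6 thus held 3 candidates of nearly one height, and 1 of them passed the threshold.

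In replicate 1 the egl-18 and elt-6 peak had a signal value of 31.1, rank 1327 and an IDR of 0.413, and in replicate 2 it had 35.96, rank 3017 and an IDR of 0.828. It was in neither replicate's own thresholded list. Its IDR in the other series-wide list was 0.0182, and that list left it out too. Both replicates did place it alike, with summits 44 bp apart, and it was the strongest candidate of elt-6 in each. For egl-18 the strongest in replicate 2 was another intronic candidate at rank 2853, 4162 bp past the gene start. Candidates were dense here. The windows of egl-18 and elt-6 held 1.45 and 1.32 candidates per kb, against a median of 0.661 over all gene windows, and 0.706% and 1.89% of genes had as many or more. The windows of the other 6 genes held from 0.637 per kb at lin-26 to 1.16 at ajm-1.

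Of the junction genes, dlg-1 lies at chrX:5479700-5484941 on the plus strand, with 1 annotated transcript. Its stronger peak, chrX:5480262-5480517, lay in an intron with the summit 690 bp past the gene start. The signal value was 88.0, rank 716 of the conservative peaks and rank 901 of the candidates, with an IDR of 0.00145 and the highest score the list gives, 1000. No start of another protein-coding gene was nearer and no small RNA gene was within 100 bp, which held besides for the egl-18 and elt-6 peak as counted for elt-6, though not for egl-18, whose nearest transcript start is 2297 bp away, and for none of the other 4. It had a signal value of 37.7 in replicate 1, rank 830, with an IDR of 0.00627, and passed there. In replicate 2 it had 49.6, rank 1147, and an IDR of 0.562, and did not pass.

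The other dlg-1 peak, chrX:5485379-5485634, had its summit on a tRNA-Met gene 566 bp past the end of dlg-1 and 980 bp upstream of C25F6.1. Its signal value was 83.9, rank 969, with an IDR of 0.00248. Here the replicates were the other way round. In replicate 1 it had rank 1457 and an IDR of 0.600, and in replicate 2 rank 1029 and an IDR of 0.00767, so that it passed in replicate 2 alone. A candidate 4181 bp upstream of dlg-1, with a signal value of 62.6 and rank 1835, had an IDR of 0.0678 between the replicates but 0.00904 within replicate 2, where it passed as well. dlg-1 was therefore called in each replicate's own list, but from different places.

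ajm-1 spans chrX:9082946-9113619 on the plus strand, the longest of the 8 genes at 30674 bp, with 16 transcripts that begin at 14 places. It had the strongest signal of the 8 genes in each list, at a tRNA gene each time, and 3.76% of all genes, or 5.01% of the longest 20%, had a candidate of as good a rank. Its peak chrX:9078212-9078467, 4606 bp upstream of the gene start, had a signal value of 176, rank 328, with an IDR of 6.41e-05. That summit is 15 bp from a tRNA-Gln gene and nearer to the start of F47E1.1, at 1154 bp, than to any start of ajm-1. Its intron peak, chrX:9091485-9091740, had a signal value of 137, rank 492, with an IDR of 0.000201. It sat on another tRNA-Gln gene, 672 bp upstream of an internal transcript start of ajm-1. Both repeated closely. The upstream peak had rank 362 in replicate 1 and rank 330 in replicate 2, the intron peak had ranks 504 and 461, and both passed in each replicate's own list.

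The last ajm-1 peak, chrX:9113913-9114168, lay 422 bp past the end of the gene and 25 bp upstream of the start of C25A11.2. Its signal value was 86.5, rank 931, with an IDR of 0.00378. In replicate 1 it had rank 1940 and an IDR of 0.239, and in replicate 2 rank 978 and an IDR of 0.0652, so it passed in neither alone. The other series-wide list, where its IDR was 0.0106, left it out as well. None of the ajm-1 peaks was thus both away from small RNA genes and nearer to a start of ajm-1 than to that of another gene.

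let-413, at chrV:7973078-7977776 on the minus strand, had no peak, and the nearest lay 242391 bp away, at a tRNA gene. Its strongest candidate was 1211 bp upstream, with a signal value of 55.5, rank 2804 and an IDR of 0.512. Of all genes 28.4% ranked as well or better, and of the longest 20% of genes 40.3% did. The replicates differed here. In replicate 2 that candidate had a signal value of 51.1, rank 1091 and an IDR of 0.0873. Replicate 1 had no candidate overlapping it, and its strongest in the window, rank 5662, was 3338 bp past the far end of the gene, upstream of che-7.

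**Figure D2:**
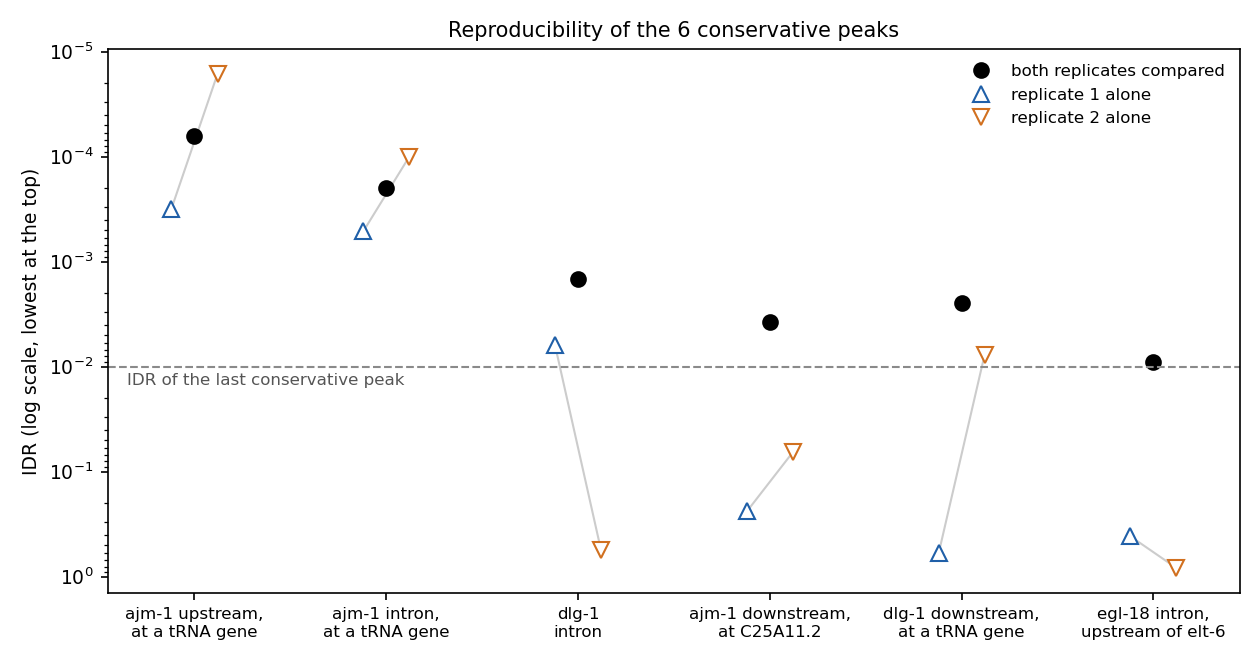
IDR of each of the 6 conservative peaks (vertical, log scale, lowest at the top) in the comparison of both replicates (black) and in the list of each replicate alone (triangles, joined by a grey line). Both ajm-1 peaks at tRNA genes lie above the dashed line, which marks the last conservative peak, in every list, the dlg-1 peaks do so in 1 replicate each, and the remaining 2 peaks in neither.

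Of the 6 peaks, 3 were in the thresholded list of replicate 1 and 3 in that of replicate 2, where 46.4% and 63.3% of all 1107 conservative peaks had an overlapping peak. The peaks in both were the 2 at tRNA-Gln genes of ajm-1, and 2 peaks were in neither, as were 31.2% of all conservative peaks. Over all conservative peaks, 67.3% of those at small RNA genes and 31.1% of the rest were in both. The other series-wide list held 4 of the 6, those of dlg-1 and the ajm-1 peaks at tRNA genes, and 81.0% of all. Counted by gene, 2 of the 8 had a peak in each of these 3 lists, dlg-1 and ajm-1, and no fate regulator did. Among all protein-coding genes, 7.50% had a peak by replicate 1, 11.2% by replicate 2 and 13.8% by the other series-wide list.

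Fate regulators and junction genes were compared by the rank of the strongest candidate of each gene. In the list of both replicates the junction genes ajm-1, dlg-1 and let-413 were at ranks 328, 901 and 2804. The regulators elt-6 and egl-18 were both at 1435, elt-3 was at 2894, lin-26 at 5332 and elt-1 at 12421. The groups overlap, since let-413 fell behind elt-6 and egl-18, with a rank close to that of elt-3. The median rank was 901 over the junction genes and 2894 over the regulators. It was 5729 over the 18489 protein-coding genes with a candidate, but 3734 over the longest 20% of genes and 5369 over the next 20%, in which the 8 genes fall. In replicate 1 let-413 was behind all 5 regulators, which ranked from 1327 to 2343. In replicate 2 all 3 junction genes, at 330, 1029 and 1091, were ahead of all regulators, which ranked from 2406 to 9944. The order of ajm-1 before dlg-1 before every regulator was the same in all 4 ranked lists, but the candidates that put ajm-1 first lie at a tRNA gene, as does that of dlg-1 in replicate 2. Without candidates at small RNA genes, the best rank of ajm-1 was 931, just behind dlg-1 at 901. In replicate 1 it was then 1940, behind elt-6 and egl-18 at 1327 and lin-26 at 1528, and in replicate 2 it was 978, ahead of dlg-1 at 1147. The median of the junction genes in replicate 1 was then 1940 and that of the regulators 1528, so in that replicate the order of the groups turned. dlg-1 was ahead of every regulator in all 4 lists with or without such candidates. With 5 and 3 genes, of which egl-18 and elt-6 share a peak, these values describe the genes and no test was made.

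**Figure D3:**
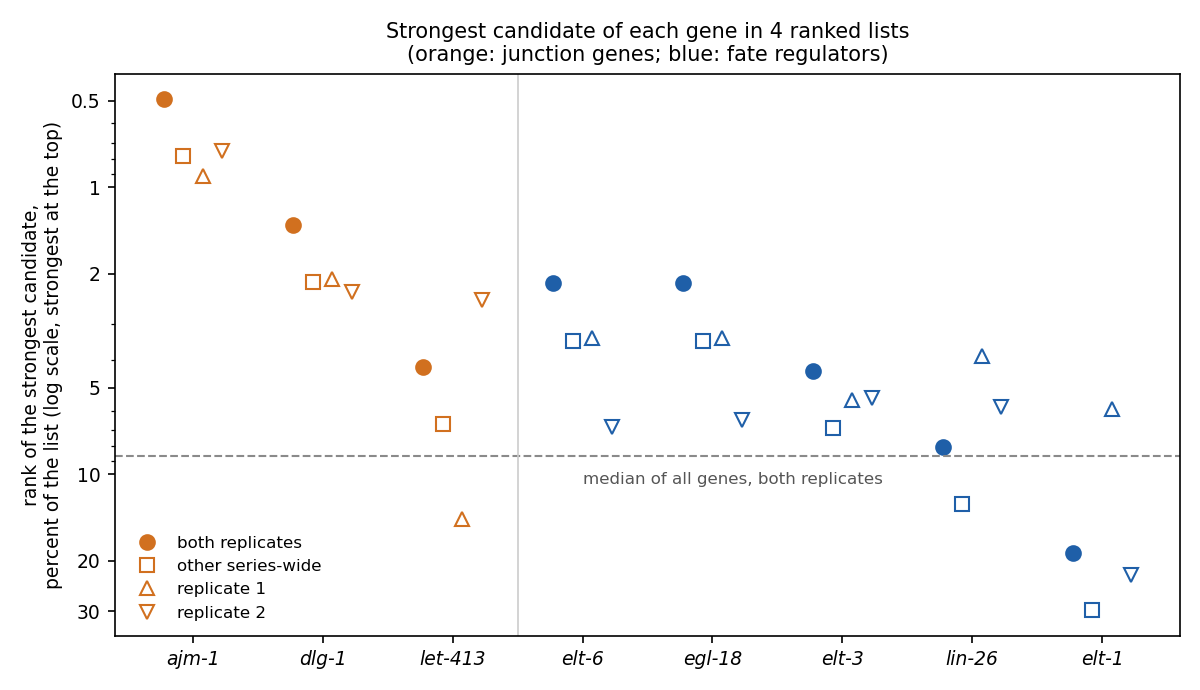
Rank of the strongest candidate of each gene as a percent of the list (vertical, log scale, strongest at the top) in the ranked list of both replicates (filled circles), the other series-wide list (squares), replicate 1 and replicate 2 (triangles). The dashed line is the median of all genes in the list of both replicates (8.63%) and applies to the filled circles alone. The median of all genes was 13.0% in the other series-wide list, 14.2% in replicate 1 and 12.6% in replicate 2. ajm-1, by candidates at a tRNA gene, and dlg-1 lie above every regulator in each list, and the points of let-413 and elt-1 spread over a wide range.

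**Figure D4:**
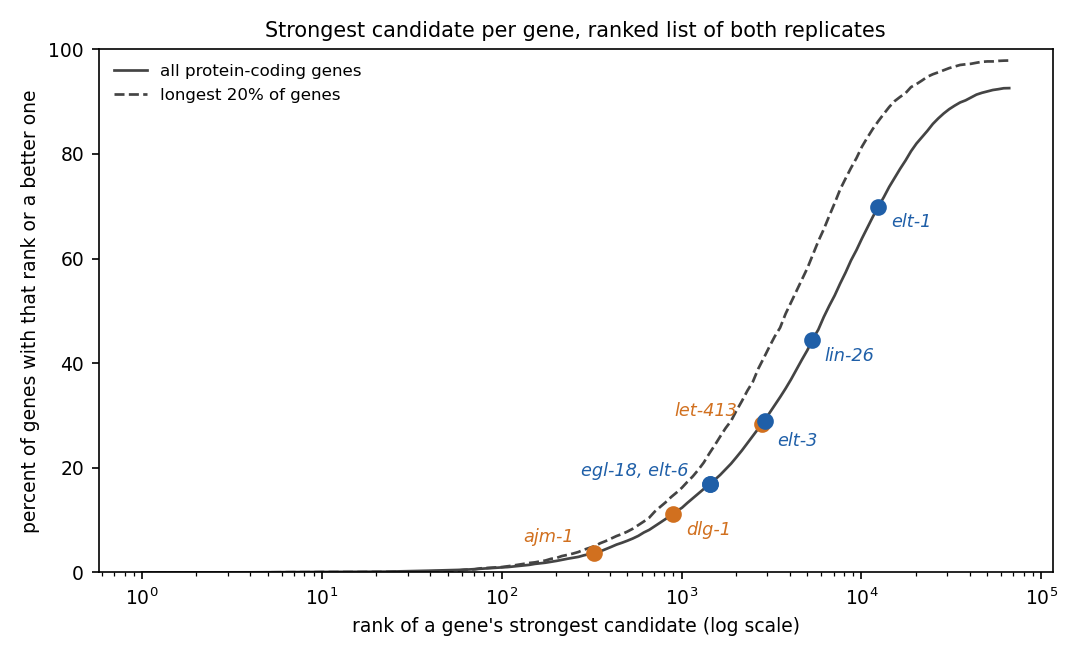
Percent of genes (vertical) whose strongest candidate has a given rank or a better one (horizontal, log scale) in the list of both replicates, for all protein-coding genes (solid) and for the longest 20% (dashed). Points mark the 8 genes, from ajm-1 at 3.76% to elt-1 at 69.9% of all genes.

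The tRNA genes at dlg-1 and ajm-1 come in clusters. The windows of the 8 genes hold 9 tRNA genes, 3 tRNA-Met genes after dlg-1 and 6 tRNA-Gln genes at ajm-1, of which 1 is upstream and 5 are in its introns. Of the 9, 3 had a conservative summit within 100 bp (33.3%), beside 38.4% of all tRNA genes and 36.2% of those on the X chromosome. The 3 tRNA-Met genes are identical in sequence over 73 bp and only the middle one had a peak. The first had a candidate at rank 16826, and the last had none. Likewise 4 of the 6 tRNA-Gln genes are identical over 72 bp, both genes with a peak among them. Of the other 2 identical copies, one had no candidate in the list of both replicates and one had a candidate at rank 61041. In replicate 1 the copy without one had a candidate at rank 7402, shared with a neighbouring tRNA-Gln gene. Over the genome, 15 tRNA genes share that tRNA-Gln sequence, of which 6 had a peak, and 9 share the tRNA-Met sequence, of which 5 had one. Of the words of 36 bases around the 3 tRNA summits, 26.5% to 28.9% occur elsewhere in the genome too, and of those around the other 3 peaks 0% do. How reads from such copies were assigned is not given in the sources used here, and its part in these peaks was not tested.

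GATA sites, the sequences that GATA factors bind, were looked for on both strands within 100 bp of the summits, as TGATAA or AGATAA alone. None of the 6 peaks had either of these, and 14.0% of all conservative summits did. Other forms were not counted. TGATAG is one of them, and the ajm-1 downstream peak holds it, printed in small letters as ctatca. The T-box sequence AGGTGTGA was at none of the 6 and at 0.361% of all summits. Its core GGTGTG was in the dlg-1 intron peak, 33 bp before the summit, and in 7.14% of all. GAGAGA, which 25.7% of all summits had, was in the ajm-1 intron peak, 31 bp past the summit and outside the tRNA gene, and at 2 places in the ajm-1 downstream peak, where it reads TCTCTC on the printed strand. GGGCGG, at 12.1% of all summits, was in none of the 6 peaks but in the elt-6 candidate, as CCGCCC. The egl-18 and elt-6 peak held none of these motifs and reads as a run of GGC repeats under its summit. A match is a description of the letters and not a bound site.

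Further genes were taken as 5 lists by role or family, and not all of them are genes of the epidermis. Among other genes of the adherens junction and apical polarity, 7 of 16 had a peak (43.8%), beside 14.5% of all genes and 20.2% of the longest 20%, to which 12 of the 16 belong. In the lists of replicate 1 and replicate 2 alone, 3 and 5 of the 16 had one. The 4 strongest were hmp-2, the worm beta-catenin (225), erm-1, a membrane to actin linker (159), par-3, an apical polarity scaffold (105) and hmr-1, the classical cadherin (98.8), where the values are signal values. None of the 7 rested on a small RNA gene, but for 4 of them every peak was nearer to the start of another gene. These starts were K05C4.7 for hmp-2 (201 bp), dhs-1 for erm-1 (331 bp), ska-3 for par-3 (125 bp) and T26E3.4 for par-6 (38 bp). Of the spectrin and hemidesmosome genes 4 of 10 had a peak (40.0%), and 9 of the 10 are among the longest 20% of genes. They were unc-70, the beta spectrin (180 in an intron, 97 bp from a small nucleolar RNA gene, and 92.6 upstream), the intermediate filament genes ifb-1 (131) and ifa-3 (91.9), both at tRNA genes, and vab-19, a hemidesmosome component (86.0). The ifb-1 peak lay in an intron of dmd-5 and the vab-19 peak was nearer to the start of pqn-42. The unc-70 intron peak was nearer to the start of K11C4.2, at 6099 bp, than to any start of unc-70, at 7001 bp. Only 2 of the 4, unc-70 and ifa-3, had a peak nearest to their own start, and of these only that of unc-70 was at no small RNA gene.

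For regulators outside the 8 genes the shares did not exceed the 14.5% of all genes. Of 7 other GATA factor genes, listed by family and not as epidermal genes, 1 had a peak (14.3%). It was med-2, through 2 peaks at tRNA genes in an intron of brd-1. Of 10 other epidermal regulators 1 had a peak, blmp-1 (82.6), nearer to maph-1.2. Of 11 cuticle collagens, which epidermal cells secrete in making the cuticle, 0 had a peak. The median rank of the strongest candidate was 2235 over the collagens, 1353.5 over the spectrin and hemidesmosome genes, 1538 over the adherens junction and polarity genes, 4100.5 over the other epidermal regulators and 6719 over the other GATA factors. In all 5 lists 13 of 54 genes (24.1%) had a peak, between the 14.5% of all genes and the 4 of 8 described here. The lists differ in gene length, with a median of 7889 bp for the adherens junction and polarity genes and 1190 bp for the collagens, and the part of length in these counts was not tested.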

How the data were processed

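Peak lists from 2 biological replicates in 1 group were taken as deposited. Per the labels the build is ce11 and chromatin was sheared by sonication. Neither aligner nor peak caller is named in the sources used here. The score column of the deposited lists is the IDR scaled to a maximum of 1000, the signal value is the score of the authors' peak caller, and the −log10 of the IDR comes from the deposited ranked lists. The summit offset that the authors gave set each position. Per the file names, the conservative list (1107 peaks) was made by the authors, and all of its peaks are among 66355 ranked candidates. A further 8 columns of per-sample values were not used. Depth is unknown, as the lists hold no counts.

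Summits were placed on Ensembl release 115 genes of WBcel235 with Python 3.11.15, pandas 2.3.3 and numpy 2.4.6. Shares over all genes use the same window of 5000 bp, and length classes of 20% each are of 19973 protein-coding genes. Small RNA genes are tRNA, snoRNA, snRNA, rRNA and miRNA genes. No test was made. Counting and motif search were tested on simulated data. All 8 genes are named, and of each further list the genes with a peak, at most the 4 strongest, with the neighbour whose start is nearer. par-6 is named besides, for its neighbour. The genes and lists were chosen with earlier results of these data known, and ifa-2 matched no symbol.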

Additional observations from a re-analysis of the deposited data

How the results depend on the processing

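The count of 4 of the 8 genes with a peak kept within 1.5 times at windows of 2000 and 10000 bp, in the gene body alone, with any overlapping base, without peaks at small RNA genes and at an IDR of 0.05. With a replicate left out, here and below, the other replicate's own list was used, so this repeats the counts by replicate given above. The count was 2 in the other series-wide list and 2 with either replicate left out (dlg-1 and ajm-1 in each). Where each summit went to the nearest gene start, if within 5000 bp, it was 2 as well (elt-6 and dlg-1). That setting is called nearest start below. The ajm-1 intron summit is nearest to the gene start of ajm-1, but 8667 bp past it and so beyond that limit. The count was also 2 (dlg-1 and elt-6) in a setting chosen after seeing the data, without peaks at small RNA genes or nearer to the start of another gene. Fate regulators went from 2 to 0 in the other series-wide list, to 0 with either replicate left out, and to 1 at 2000 bp, in the gene body alone and by nearest start. Junction genes went from 2 to 1 by nearest start. Over all genes the 2905 became 1497 to 2246 with a replicate left out, 1779 at 2000 bp, 4493 at 10000 bp, 342 in the gene body alone and 937 by nearest start. From 14.5% of all genes, the share became 21.3% (4264 genes) at an IDR of 0.05. It became 11.2% (2242 genes) without peaks at small RNA genes and 14.8% (2947 genes) with any overlapping base. Of the 5 further lists the 13 genes became 6 to 11 with a replicate left out, 8 at 2000 bp, 4 in the gene body alone and 4 by nearest start. The median rank of 2119.5 over the 8 genes became 4113 in the gene body alone, and 1427.5 to 2494 in the replicates. In the gene body alone elt-6 went to rank 15683 and let-413 to 15575, while lin-26, elt-3, egl-18 and dlg-1 kept their ranks. Ranked by IDR, lin-26 at 3755 came before elt-3 at 6566, and the other genes kept their order. Without candidates at small RNA genes, also chosen after seeing the data, the median was the same, and of the 8 genes only the rank of ajm-1 moved, from 328 to 931. The 0 peaks with TGATAA or AGATAA became 3 at 200 bp on each side, beside 37.1% of all summits. Narrower windows and fewer peaks lower such counts by construction; other causes were not tested. No paired analysis was possible because there was 1 group.

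Limits are the 2 replicates of 1 strain, unknown depth, and peaks of whole embryos. A gene without a peak is one where none passed at this depth. The 3 peaks at tRNA genes lie partly in sequence with copies elsewhere.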
